A study of Mus musculus with 11 samples.

Results

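Transcripts of the EGF family were examined in sorted mouse epidermal cells: 6 ligand genes (Hbegf, Areg, Ereg, Epgn, Tgfa and Btc), 3 genes for ErbB receptors (Egfr, Erbb2 and Erbb3) and Errfi1, which encodes a feedback inhibitor of the receptors. These 10 genes were chosen by family, with no threshold on their values, out of 52550 genes in the table, and all 10 were among the 14419 genes that passed the filter on low counts (a CPM above 1 in at least 2 of the 11 libraries). The libraries were poly-A RNA-seq of keratinocytes (KCs) and dendritic epidermal T cells (DETCs, the γ/δ T cells of mouse epidermis), sorted from the flank skin of 8 week old huLangerin-DTA mice (LC-/-) and their wild type (WT) littermates. In LC-/- mice a human langerin promoter drives the diphtheria toxin A subunit, so Langerhans cells (LCs, the antigen-presenting cells of the epidermis) are missing from birth onwards. There were 3 WT and 3 LC-/- KC libraries, 3 WT DETC libraries and 2 LC-/- DETC libraries, numbered 2 and 3. These library numbers follow the order of the label numbers within a genotype. A library number thus joins KC and DETC libraries of 1 label number, and it does not link WT with LC-/- libraries. KCs were gated as live CD45- cells and DETCs as live CD45+ cells, both negative for MHC-II, langerin and c-kit. The labels do not say whether the KC and DETC libraries of a number came from 1 animal, and p-values measure the spread between these libraries.

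Ligands of the EGF family are made as membrane-bound precursors, and metalloproteases such as ADAM17 cut them free at the cell surface. They bind EGFR, and heparin-binding EGF-like growth factor, epiregulin and betacellulin also bind ERBB4; ERBB2 has no known ligand and serves as the partner of the other receptors, while ERBB3 binds neuregulins and signals through its partners. In the epidermis, KCs both make EGFR ligands and carry the receptor, and this loop is known for its part in KC growth, migration and wound closure.

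Areg, Errfi1, Tgfa and Egfr are the genes called between genotypes in the results that follow, so the 250 bases before their annotated starts are shown, with motif matches in capitals. Of the 10 genes, 7 had an entry in the RefSeq promoter table (build GRCm38.p6), and Hbegf, Ereg and Erbb3 had none. The motifs searched, on both strands, were the cAMP response element TGACGTCA, the AP-1 motif TGANTCA, the TATA motif TATAAA and the GC box GGGCGG, which reads CCGCCC on the other strand. All 4 genes are on the plus strand.
Areg, chr5:91139349-91139598: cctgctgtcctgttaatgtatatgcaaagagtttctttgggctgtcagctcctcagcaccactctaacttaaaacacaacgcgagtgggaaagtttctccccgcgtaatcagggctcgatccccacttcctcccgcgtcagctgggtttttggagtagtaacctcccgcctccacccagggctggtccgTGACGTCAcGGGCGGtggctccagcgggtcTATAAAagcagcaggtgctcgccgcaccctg
Errfi1, second of its 2 starts, chr4:150854820-150855069: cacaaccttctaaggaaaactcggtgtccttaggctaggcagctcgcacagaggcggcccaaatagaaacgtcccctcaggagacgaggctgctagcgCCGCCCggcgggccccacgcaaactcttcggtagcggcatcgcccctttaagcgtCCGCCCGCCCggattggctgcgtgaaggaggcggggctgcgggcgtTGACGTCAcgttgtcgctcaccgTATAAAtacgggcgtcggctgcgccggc
Tgfa, chr6:86194972-86195221: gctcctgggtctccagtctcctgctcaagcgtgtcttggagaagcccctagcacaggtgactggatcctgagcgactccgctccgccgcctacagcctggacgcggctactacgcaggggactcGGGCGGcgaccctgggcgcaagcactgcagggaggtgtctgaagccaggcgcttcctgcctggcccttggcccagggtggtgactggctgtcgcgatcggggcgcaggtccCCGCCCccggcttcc
Egfr, chr11:16751953-16752202: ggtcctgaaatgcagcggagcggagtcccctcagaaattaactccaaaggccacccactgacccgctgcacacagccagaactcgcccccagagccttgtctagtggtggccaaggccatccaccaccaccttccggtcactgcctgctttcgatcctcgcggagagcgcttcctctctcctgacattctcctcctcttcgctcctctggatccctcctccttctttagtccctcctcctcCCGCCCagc
The Areg sequence holds TGACGTCA from 61 to 54 bases before the start, a GC box from 52 to 47 and TATAAA from 31 to 26. The Errfi1 sequence, which lies in the first intron of the transcript from the other start, holds TGACGTCA from 51 to 44 and TATAAA from 28 to 23, with 3 GC boxes farther out, 2 of which overlap. Of 32851 promoters of this length, 1.55% held TGACGTCA, 12.4% held TATAAA and 0.119% (39 promoters) held both. Among the 7 genes no other sequence held TGACGTCA, and none held the AP-1 motif, which was found in 6.75% of promoters. Tgfa and Egfr held GC boxes alone, while 32.7% of promoters held a GC box with or without the other motifs. Epgn held TATAAA from 86 to 81 bases before its RefSeq start. The gene position given below for Epgn begins at 91027464, inside this stretch (91027267 to 91027516), so the distance depends on the start used. The sequence before the other start of Errfi1 held none of these motifs. The genes shown were picked by their calls, and the motifs were chosen with earlier results known. The shares of promoters are therefore a description and not a test. A match is a description of the letters and not a site of binding.

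The values are normalized counts, that is, read counts divided by a size factor for each library. The reads counted on genes numbered 13491075 to 19750440 in a library, and each member had at least 31 reads in each library. Every LC-/- KC library held 0 reads of Cd207, the langerin gene, against normalized counts of 6.15 to 26.9 in WT KCs. Of 8 tested LC genes, Cd207, Cd74 and H2-Aa were called lower in LC-/- KCs, and Epcam, which KCs also express, higher. In DETCs Cd207 stood at 16.5 to 46.7 in WT and at 0 and 4.42 in LC-/- libraries. The summed level of 20 DETC genes was 355 to 678 in KC libraries and 270550 to 293280 in DETC libraries. KC transcripts were present in DETC libraries: the summed level of 20 KC genes, none at 0, was 717700 to 780170 in KCs, 123910 to 154250 in WT DETCs, 210740 in LC-/- DETC library 2 and 134170 in library 3. As a median over these 20 genes, a DETC library held 15.3% to 18.6% of the mean level in KCs of its genotype, except LC-/- DETC library 2 with 26.2%. LC-/- DETC library 2 thus stood apart, and values without it are given where a result rests on it. In sorted bulk RNA, fewer cells of a type and less RNA per cell cannot be told apart.

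In KCs the ligands were led by epigen and heparin-binding EGF-like growth factor, and in DETCs by amphiregulin. Per kilobase of merged exon, Epgn held 61.9% to 69.1% of the summed level of the 6 ligands in WT KC libraries, Hbegf 17.7% to 21.4% and Areg 5.18% to 8.03%. In WT DETC libraries Areg held 95.0% to 96.1% and Epgn 2.03% to 3.37%. The shares in LC-/- libraries were 55.3% to 73.3% for Epgn in KCs and 94.9% to 96.1% for Areg in DETCs, so the leading ligand of each population was the same in both genotypes.

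**Figure D1:**
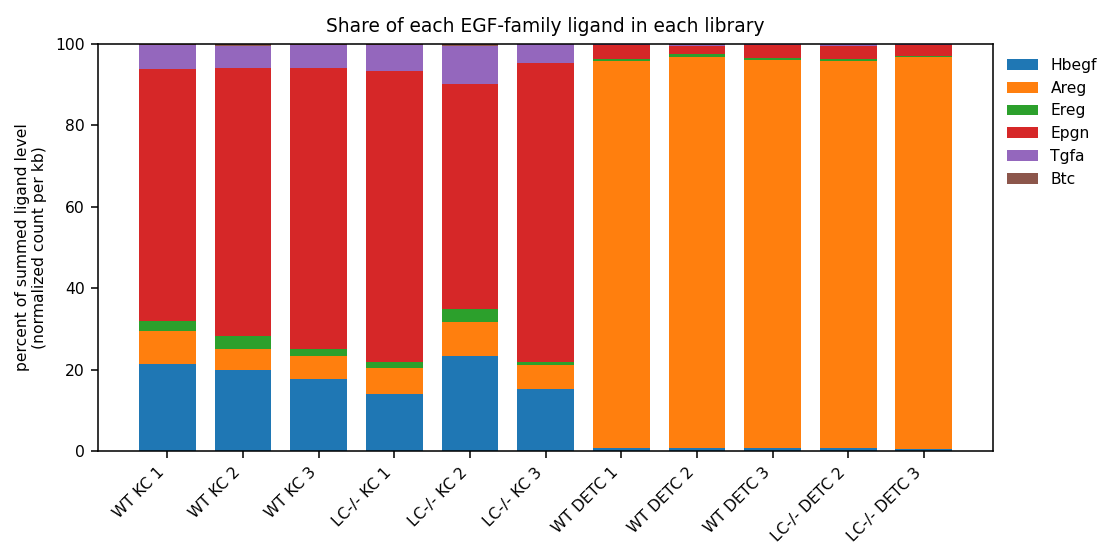
Stacked bars give, for each of the 11 libraries, the percent that each ligand took of the summed ligand level in normalized counts per kilobase of exon. Epgn filled the largest part of each KC bar (55.3% to 73.3%) and Areg nearly the whole of each DETC bar (94.9% to 96.1%).

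Areg (ENSMUSG00000029378.5, chromosome 5, 91139599 to 91148432) encodes amphiregulin, a low-affinity EGFR ligand made by epithelia and by several kinds of lymphocytes. WT KC libraries held normalized counts of 381, 244 and 300.0, and LC-/- KC libraries 393, 363 and 486. WT DETC libraries held 18796, 20232 and 20201, and LC-/- DETC libraries 29731 and 29740. Each DETC library thus lay far above each KC library, and the 2 LC-/- DETC libraries lay above the 3 WT DETC libraries. The DETC level was 64.8-fold higher than the KC level in WT (log2 difference 6.02 ± 0.14 (SE), limma adjusted p = 6.02e-10) and 72.2-fold higher in LC-/- mice (6.17 ± 0.13, adjusted p = 6.18e-07). By level per kilobase, Areg ranked 18 of 14403 genes in WT DETCs and 2377 in WT KCs.

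Errfi1 (ENSMUSG00000028967.10, chromosome 4, 150853919 to 150868892) encodes MIG6, an adaptor induced by EGFR signalling that binds the kinase domain of the receptor and blocks it. WT KC libraries held normalized counts of 8990, 7887 and 8962, and LC-/- KC libraries 12232, 11403 and 13614. WT DETC libraries held 19328, 20886 and 20858, and LC-/- DETC libraries 28391 and 29543. No 2 of these 4 groups overlapped. Errfi1 was 2.37-fold higher in DETCs than in KCs of WT mice (adjusted p = 1.33e-06 by limma) and 2.34-fold higher in LC-/- mice (adjusted p = 0.000125). Areg and Errfi1 were the 2 members called higher in DETCs in both genotypes, where limma called 41.0% of the 14419 tested genes higher in WT and 38.1% in LC-/- mice.

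Hbegf, Epgn and Tgfa were lower in DETCs than in KCs. Hbegf encodes heparin-binding EGF-like growth factor, which is made at wound edges. WT KC libraries held normalized counts of 4047, 3719 and 3706, and LC-/- KC libraries 3413, 3994 and 4884. WT DETC libraries held 632, 658 and 669, and LC-/- DETC libraries 964 and 796. Epgn encodes epigen, a low-affinity ligand of EGFR. It stood at 4367, 4615 and 5411 in KC libraries of WT mice and at 6465, 3535 and 8821 in those of LC-/- mice. In DETC libraries it stood at 993, 637 and 976 (WT) and at 1482 and 1248 (LC-/-). Tgfa (ENSMUSG00000029999.14, chromosome 6, 86195223 to 86275719) encodes TGF-α, a main EGFR ligand of KCs. WT KC libraries held normalized counts of 1504, 1340 and 1600.0, and LC-/- KC libraries 2093, 2176 and 2005. WT DETC libraries held 266, 248 and 330, and LC-/- DETC libraries 648 and 388. For all 3, each DETC library lay below each KC library. The WT level was 5.85-fold lower in DETCs for Hbegf, 5.60-fold lower for Epgn and 5.28-fold lower for Tgfa, with limma adjusted p of 1.25e-09, 5.08e-07 and 6.05e-08. In LC-/- mice the levels were 4.62-fold, 4.31-fold and 4.16-fold lower, with adjusted p of 4.77e-05, 0.00191 and 0.000164. For Epgn in LC-/- mice, the adjusted p was 0.0558 without LC-/- DETC library 2 and 0.0735 without library 3.

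The receptors were lower in DETCs as well. Egfr (ENSMUSG00000020122.16, chromosome 11, 16752203 to 16918158), the receptor of all 6 ligands, stood at 3411, 3473 and 4192 in KC libraries of WT mice and at 5849, 4944 and 5795 in those of LC-/- mice. In DETC libraries it stood at 525, 558 and 774 (WT) and at 1321 and 887 (LC-/-). Erbb2, the ligand-less partner, stood at 2390, 2162 and 2150 in KC libraries of WT mice and at 2211, 2673 and 2290 in those of LC-/- mice. In DETC libraries it stood at 309, 400.2 and 362 (WT) and at 608 and 311 (LC-/-). Erbb3, the neuregulin receptor, stood at 6176, 6027 and 5665 in KC libraries of WT mice and at 6775, 7703 and 6855 in those of LC-/- mice. In DETC libraries it stood at 822, 796 and 880.1 (WT) and at 1308 and 723 (LC-/-). The KC and DETC libraries overlapped for none of the 3 genes. In WT mice the DETC level was 6.02-fold lower for Egfr, 6.27-fold lower for Erbb2 and 7.15-fold lower for Erbb3, and the largest of the 3 limma adjusted p-values was 1.59e-07. In LC-/- mice it was 5.09-fold, 5.47-fold and 7.29-fold lower, with 0.000252 as the largest adjusted p. In all, 6 of the 10 members were called lower in DETCs in both genotypes, beside 35.1% of all tested genes in WT and 32.1% in LC-/- mice.

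Ereg and Btc showed no called difference between the populations in fits without a block for the library number. Ereg encodes epiregulin, a ligand of EGFR and ERBB4. WT KC libraries held normalized counts of 388, 511 and 288, and LC-/- KC libraries 305, 436 and 208. WT DETC libraries held 337, 480.3 and 321, and LC-/- DETC libraries 677 and 258. Btc encodes betacellulin, another ligand of both receptors, and was the lowest of the 10 genes. It stood at 58.4, 82.6 and 39.8 in KC libraries of WT mice and at 54.0, 64.1 and 35.7 in those of LC-/- mice. In DETC libraries it stood at 73.1, 177 and 30.1 (WT) and at 121 and 47.5 (LC-/-). The groups overlapped for both genes. The libraries numbered 2 gave the highest value of both genes in each of the 4 groups, although WT and LC-/- libraries of this number have different label numbers. The log2 difference of DETCs from KCs in WT mice was -0.05 for Ereg (95% interval -0.53 to 0.44, limma adjusted p = 0.855) and 0.34 for Btc (-0.89 to 1.57, adjusted p = 0.585). In LC-/- mice it was 0.46 for Ereg (-0.64 to 1.57, adjusted p = 0.394) and 0.60 for Btc (-0.47 to 1.67, adjusted p = 0.264).

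**Figure D2:**
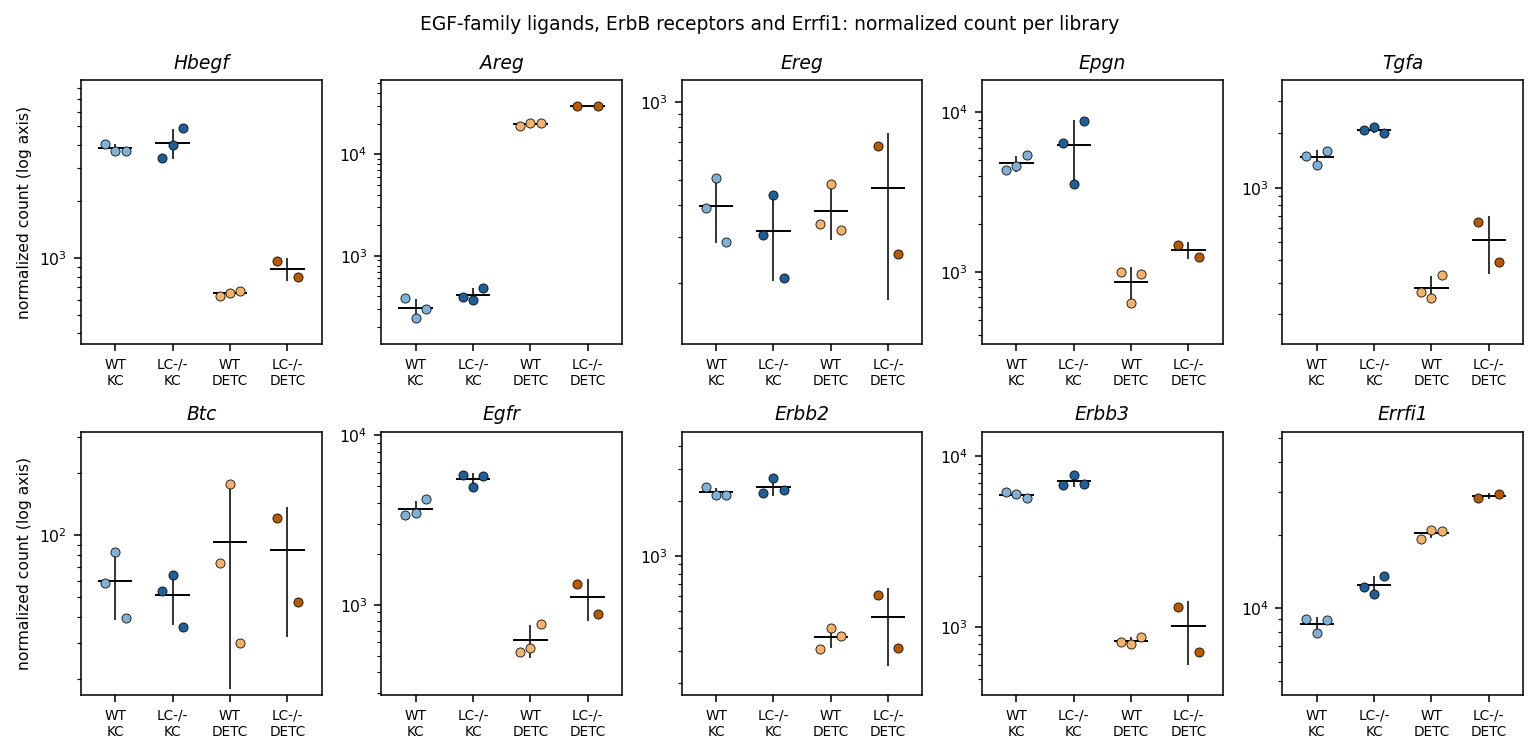
Points give the normalized count (log axis) of each of the 10 genes in each library of the 4 groups, with the group mean as a horizontal line and 1 SD as a vertical line. Areg lay at 244 to 486 in KCs and at 18796 to 29740 in DETCs, Errfi1 was also higher in DETCs, and Hbegf, Epgn, Tgfa and the 3 receptors were lower there.

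By level per kilobase, the order of the 10 genes differed between the populations most through Areg, and also through Ereg and through Epgn and Errfi1. In WT KCs it ran Epgn (2655 ± 302 normalized counts per kb, SD, n = 3), Errfi1 (2405 ± 176), Erbb3 (990.1 ± 43.7), Hbegf (791 ± 39.95), Erbb2 (429 ± 25.9), Egfr (326 ± 38.4), Areg (254 ± 56.8), Tgfa (228 ± 20.2), Ereg (95.9 ± 27.1) and Btc (13.3 ± 4.75). The libraries of Epgn and Errfi1 overlapped, as did those of Egfr and Areg and those of Areg and Tgfa, and the other neighbours were apart. In WT DETCs the order began with Areg (16249 ± 675), Errfi1 (5683 ± 249) and Epgn (481 ± 111), each apart from the next. Erbb3 (138 ± 7.14) and Hbegf (135 ± 3.95) came next and overlapped, followed by Ereg (91.9 ± 21.2), which was apart from both neighbours. The order ended with Erbb2 (68.5 ± 8.81), Egfr (54.6 ± 11.95), Tgfa (43.3 ± 6.63) and Btc (20.6 ± 16.7), whose neighbours overlapped. In LC-/- KCs the same 4 genes led, and Egfr (488 ± 44.8) stood before Erbb2 (459 ± 47.4) with overlapping libraries.

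The 6 members that were lower in DETCs stood there at levels within the range of KC marker genes. The 20 KC genes in WT DETC libraries ranged from 9.32% (Krt1) to 171% (Lor) of their mean KC level, with a median of 16.7%. On the same measure Hbegf stood at 17.1%, Epgn at 18.1%, Tgfa at 19.0%, Egfr at 16.8%, Erbb2 at 16.0% and Erbb3 at 14.0%. In LC-/- mice the KC genes ranged from 10.4% to 179% with a median of 20.9%, and the 6 members from 14.3% (Erbb3) to 24.8% (Tgfa). How much of the level of these 6 genes in DETC libraries came from KC transcripts was not tested. Areg (64.0 times the KC level in WT and 71.8 times in LC-/- mice) and Errfi1 (236% and 233%) stood above all 20 KC genes. Ereg (95.9% and 148%) and Btc (155% and 165%) stood above 19 of the 20, all but Lor, which encodes loricrin, a protein of the cornified layer.

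**Figure D3:**
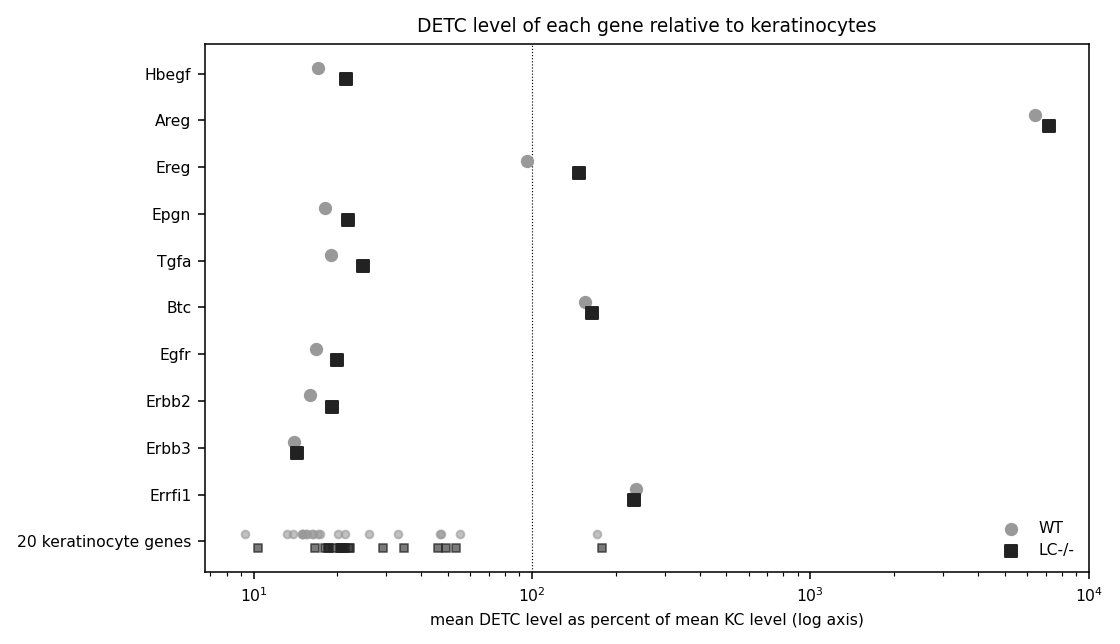
The x axis gives the mean level in DETC libraries as a percent of the mean level in KC libraries of the same genotype (log axis), for each of the 10 genes and for 20 KC genes, in WT (circles) and LC-/- mice (squares). Hbegf, Epgn, Tgfa, Egfr, Erbb2 and Erbb3 lay between 14.0% and 24.8%, near the medians of the KC genes (16.7% and 20.9%), and Areg and Errfi1 lay to the right of all KC genes.

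A different scaling shifted the population differences of all genes together. With quantile normalization the median log2 difference of all tested genes moved from 0.07 to -0.24 in WT and from 0.08 to -0.28 in LC-/- mice. Relative to that median, Areg was higher in WT DETCs by 5.95 on the log2 scale with size factors and by 6.02 with quantile normalization, and Errfi1 by 1.17 and 1.19. The receptors and Hbegf, Epgn and Tgfa stayed lower in DETCs under both scalings, with relative differences between -2.91 and -2.40 in WT mice, while Btc turned from 0.34 to -0.08 before the median was taken into account.

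The comparison of LC-/- with WT mice asked which genes of each population differ where LCs have been missing since birth. In KCs, Tgfa, Egfr and Errfi1 were called higher in LC-/- mice, a ligand, its receptor and the inhibitor of that receptor. Limma called 5.37% of all tested genes higher in LC-/- KCs and 1.85% lower, and no member was called lower. Tgfa was 1.41-fold higher (log2 change 0.50 ± 0.08 (SE), adjusted p = 0.0294), from a mean of 1482 ± 131 (SD, n = 3) in WT to 2092 ± 85.7 in LC-/- KCs. Egfr was higher by 0.58 ± 0.11 on the log2 scale (adjusted p = 0.0446), from 3692 ± 435 to 5529 ± 508, and Errfi1 was 1.44-fold higher (0.53 ± 0.09, adjusted p = 0.0385), from 8613 ± 629 to 12416 ± 1117. For these 3 genes and for Erbb3 each LC-/- library lay above each WT library, as it did for 16.6% of all tested genes. Erbb3 differed by 0.25 on the log2 scale with an adjusted p of 0.0876 by limma and was called by DESeq2 on the recovered reads (adjusted p = 0.0202), which called 4 members and 8.43% of all genes higher.

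The 3 calls in KCs depended on the libraries in the fit and on the settings. With any 1 of the 6 KC libraries left out, Tgfa (limma adjusted p from 0.0523 to 0.102) and Egfr (0.0509 to 0.139) were not called, and Errfi1 was called only without LC-/- KC library 2 (0.0491, and 0.0881 to 0.115 otherwise). These fits called fewer genes in all, beside 775 higher and 267 lower with the 6 libraries. Without WT KC library 1, 2 or 3 they called 10, 7 and 200 genes higher and 5, 9 and 24 lower. Without LC-/- KC library 1, 2 or 3 they called 5, 552 and 10 higher and 0, 169 and 6 lower. The log2 changes without single libraries stayed between 0.43 and 0.56 for Tgfa, 0.53 and 0.68 for Egfr and 0.46 and 0.59 for Errfi1. With quantile normalization none of the 3 was called, with adjusted p of 0.0552, 0.0674 and 0.0556 and log2 changes of 0.40, 0.43 and 0.32. Egfr was also not called without a mean-variance trend (adjusted p = 0.0571), nor Tgfa in 1 limma fit over all 11 libraries (adjusted p = 0.0768). KC genes moved the same way in part: 3 of 20 (Cdh1, Epcam and Lypd3) were called higher in LC-/- KCs and 0 lower, with summed levels of 717700 to 762490 in WT and 725450 to 780170 in LC-/- libraries. The part of these markers in the calls was not tested.

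The other 6 members were not called in KCs. Areg stood at 308 ± 69.0 in WT and 414 ± 63.6 in LC-/- KCs (log2 change 0.44, 95% interval -0.06 to 0.94, limma adjusted p = 0.235). Epgn differed more between LC-/- libraries, from 3535 to 8821, than between the group means of 4798 and 6274 (0.30, -0.58 to 1.17, adjusted p = 0.635). Hbegf (0.09, -0.26 to 0.43) and Erbb2 (0.09, -0.13 to 0.32) turned to -0.06 and -0.03 with quantile normalization. Ereg (-0.35, -1.21 to 0.51) and Btc (-0.21, -1.09 to 0.67) had the widest intervals beside Epgn.

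In DETCs, Areg and Errfi1, the 2 members that were higher in DETCs than in KCs, were also the members called higher in LC-/- mice. Limma called 3.13% of all genes higher in LC-/- DETCs and 0.43% lower, and no member was called lower. Areg was 1.51-fold higher (log2 change 0.59 ± 0.11 (SE), adjusted p = 0.0323), from a mean of 19743 ± 820.4 (SD, n = 3) in WT to 29735 ± 6.82 (n = 2) in LC-/- DETCs. Errfi1 was 1.42-fold higher (0.51 ± 0.11, adjusted p = 0.0489), from 20357 ± 892 to 28967 ± 815. The 2 LC-/- libraries lay above the 3 WT libraries for 6 members (Hbegf, Areg, Epgn, Tgfa, Egfr and Errfi1), as they did for 21.3% of all genes. DESeq2 called these 6 members and 6.02% of all genes higher, while edgeR called Areg and Errfi1 alone and 2.84% of all genes.

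LC-/- DETC library 2, with the larger share of KC transcripts, carried the higher value of Hbegf, Epgn, Tgfa and the 3 receptors. Without it the log2 changes in DETCs were 0.59 for Areg, 0.54 for Errfi1, 0.54 for Egfr, 0.47 for Tgfa and 0.29 for Hbegf. Those of Erbb2 and Erbb3 turned to -0.19 and -0.20. Without LC-/- DETC library 3 the changes of Hbegf, Tgfa, Egfr, Erbb2 and Erbb3 were larger, from 0.56 to 1.21. Both fits left 1 LC-/- library, so the changes alone are given here. Of the 20 KC genes, Epcam and Lypd3 were called higher in LC-/- DETCs and 0 lower. The part of KC transcripts in these values was not tested.

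Areg and Errfi1 gave log2 changes of 0.59 and 0.51 with LC-/- DETC library 2 and of 0.59 and 0.54 without it. Leaving out WT DETC library 1 kept both calls (limma adjusted p = 0.0265 and 0.0355), in a fit that called 342 genes higher and 28 lower. Both were lost without WT DETC library 2 (0.118 and 0.158, with 63 genes higher and 10 lower) or library 3 (0.106 and 0.148, with 42 and 0). With 1 LC-/- library left no call is read, and without LC-/- DETC library 3 the changes were 0.59 and 0.48. Neither was called with quantile normalization, where the log2 change fell from 0.59 to 0.36 for Areg (adjusted p = 0.0605) and from 0.51 to 0.26 for Errfi1 (adjusted p = 0.114). Nor was either called by limma without a mean-variance trend (adjusted p = 0.180 for both), which called 0 genes in DETCs (at an unadjusted p under 0.05, 1554 were higher and 853 lower). Genes of the immediate early response, which cell isolation can induce, had a summed level of 385440 to 446730 in WT and 472440 and 535700 in LC-/- DETCs. Of 16 such genes, Egr3 and Ier3 were called higher in LC-/- DETCs, 0 were lower, and none was at 0 in a group. For 13 of the 16, both LC-/- DETC libraries lay above every WT DETC library, as they did for 21.3% of all genes. The median log2 change of the 16 genes in DETCs was 0.31, beside 0.02 over all tested genes. In KCs 0 of the 16 were called, with sums of 518620 to 531320 in WT and 476250 to 568850 in LC-/- libraries. There 3 of the 16 had every LC-/- library above every WT library, beside 16.6% of all genes. The part of this response in the Areg and Errfi1 values was not tested.

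The remaining members gave limma adjusted p-values in DETCs from 0.0759 (Egfr) to 0.979 (Btc). Tgfa stood at 281 ± 43.0 in WT and 518 ± 184 in LC-/- DETCs (log2 change 0.84, 95% interval 0.33 to 1.36, adjusted p = 0.0841), and Egfr at 619 ± 135 and 1104 ± 307 (0.83, 0.34 to 1.31). Hbegf stood at 653 ± 19.1 and 880.1 ± 119 (0.42, 0.17 to 0.68, adjusted p = 0.0797) and Epgn at 869 ± 200.9 and 1365 ± 165 (0.67, 0.23 to 1.12, adjusted p = 0.108). Erbb2 (0.29, -0.31 to 0.89), Erbb3 (0.22, -0.28 to 0.72), Ereg (0.16, -0.68 to 1.01) and Btc (0.05, -1.52 to 1.63) had intervals that held 0.

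**Figure D4:**
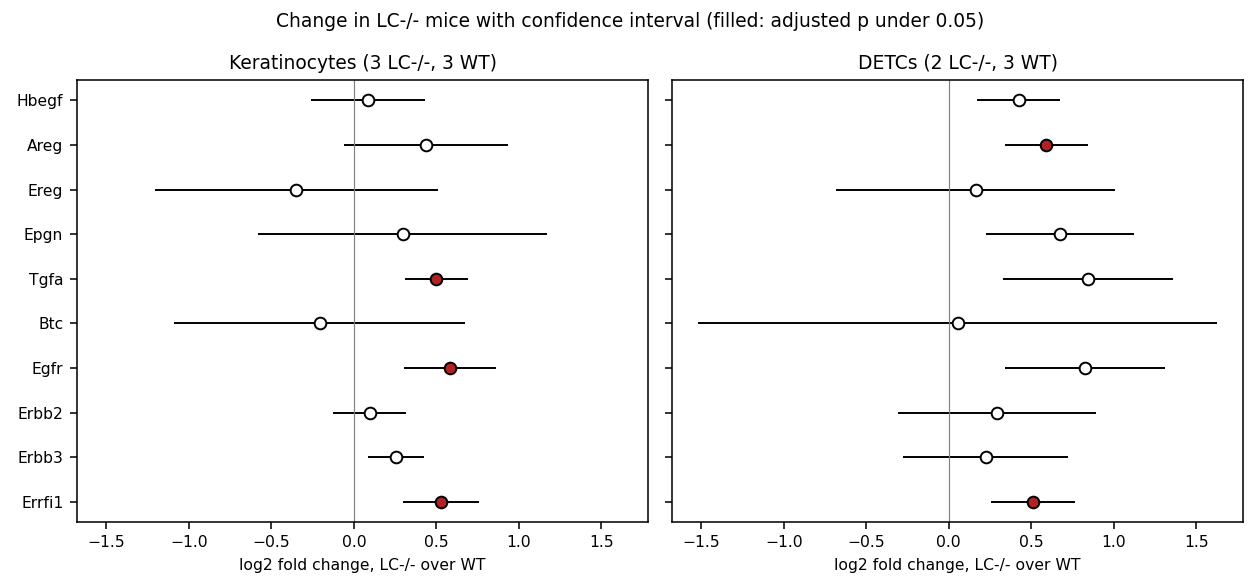
Points give the log2 fold change of LC-/- over WT libraries for each of the 10 genes in KCs (left) and DETCs (right), with the 95% interval as a bar and filled points for an adjusted p under 0.05. Tgfa, Egfr and Errfi1 are filled in KCs (0.50, 0.58 and 0.53) and Areg and Errfi1 in DETCs (0.59 and 0.51), and the intervals of Ereg and Btc are the widest in DETCs.

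An interaction term, which tests whether the genotype change of a gene was unequal in the populations, called 0 members by limma and by DESeq2 and edgeR, and 0.798% of all genes by limma. No member had an unadjusted p under 0.05, and the lowest was that of Hbegf (0.0745). The difference of the DETC from the KC change was 0.15 for Areg (95% interval -0.31 to 0.62, adjusted p = 0.856), 0.34 for Tgfa (-0.18 to 0.87, 0.677), 0.24 for Egfr (-0.30 to 0.78, 0.793) and -0.02 for Errfi1 (-0.33 to 0.30, 0.983). Areg was therefore not shown to change in DETCs alone, nor Tgfa and Egfr in KCs alone, and the intervals allowed differences of up to 0.87 on the log2 scale for Tgfa.

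Across the 11 libraries several members were high and low together, as a description. Each gene's log2 value was taken as a deviation from the mean of its population, so the points share libraries, depth and the difference between genotypes. The correlation (Pearson's r) was 0.92 between Areg and Errfi1, 0.95 between Tgfa and Egfr, 0.89 between Erbb2 and Erbb3 and 0.78 between Ereg and Btc, and it was -0.29 between Areg and Ereg. These pairs were not separate sets. The correlation was also 0.86 between Egfr and Errfi1, 0.80 between Tgfa and both Errfi1 and Erbb3, and 0.76 between Areg and Egfr. It was lower between Errfi1 and Erbb2 (0.31). Among 14039 genes, those with the pattern most like Areg were Ccdc25 (r = 0.99), Gdap2 (0.98) and Cpeb2 (0.97), and those most like Errfi1 were Cnot2 (0.99), Usp7 and Map4k4 (both 0.98). Tgfa was nearest to Urgcp (0.99) and Trim16 (0.98), and Egfr to Map3k20 (0.99). Ereg was nearest to Kprp (0.96), 2310050C09Rik (0.96) and Csta1 (0.95), and Kprp and Csta1 encode proteins of the cornified layer. In WT DETCs Kprp and Csta1 stood at 148% and 138% of their KC level, and Ereg at 95.9%. Hbegf was nearest to Sc5d (0.94), Epgn to Zfp654 (0.95), Btc to D830050J10Rik (0.93), Erbb2 to 2310022B05Rik (0.97) and Erbb3 to Pkp3 (0.97), a desmosome gene.

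Epgn, Ereg, Areg and Btc lie side by side on chromosome 5 (GRCm38, 91027464 to 91402994, 375531 bp). Epgn, Ereg and Areg are on the plus strand with 39406 and 45952 bp between them, and Btc is on the minus strand 208828 bp beyond Areg. Across libraries, as deviations from population means, Pearson's r between these neighbours ranged from -0.42 (Epgn with Btc) to 0.78 (Ereg with Btc). Between the populations the neighbours did not all differ in the same way. From KCs to DETCs in WT mice, Areg was 64.8-fold higher, Epgn 5.60-fold lower, and Ereg and Btc were not called. The other members lie on chromosomes 4 (Errfi1), 6 (Tgfa), 10 (Erbb3), 11 (Egfr and Erbb2) and 18 (Hbegf). Exons of Ereg, Tgfa and Erbb2 overlap genes on the opposite strand by 141, 118 and 9 bases, and as the strand setting of the counting is not given in the sources used here, reads there could not be told apart. The overlapping genes of Ereg and Tgfa held at most 4 and 2 reads in a library, while that of Erbb2, Mien1, held up to 330 where Erbb2 had at least 281.

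Further genes of the pathway were taken from lists of 91 genes, of which 88 passed the filter. Apart from Nrg1, the other ligand genes and Erbb4 were low. Erbb4, the fourth receptor, had at most 1 read in a library, Nrg3 had 0, and Egf was at 1.86 to 14.9 normalized counts. Nrg1, which encodes a neuregulin that ERBB3 binds, was the 1 of 3 tested genes called higher in LC-/- KCs, from 292 ± 82.2 to 590.4 ± 39.3 (log2 change 1.05, limma adjusted p = 0.0454). It stood at 53.5 ± 19.6 in WT and 127 ± 81.2 in LC-/- DETCs (1.14, adjusted p = 0.227).

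Genes for shedding and trafficking of the ligands gave 0 calls of 12 in LC-/- KCs and 1 in LC-/- DETCs. Adam17, the main sheddase of Areg and Tgfa, was at 1384 ± 92.4 (WT) and 1183 ± 44.2 (LC-/-) in KCs and at 1331 ± 60.1 (WT) and 1254 ± 125 (LC-/-) in DETCs, and it was not called in any of the 5 comparisons. Adam10, another sheddase, was not called either. Adam9 was 2.09-fold higher in LC-/- DETCs (from 1418 ± 97.7 to 2974 ± 452, limma adjusted p = 0.00991), differed in KCs from 876 ± 18.5 to 975 ± 45.2 (adjusted p = 0.106), and its interaction was called (0.91, adjusted p = 0.0106). Between populations, Rhbdf2, whose product brings ADAM17 to the cell surface, was 1.37-fold higher in WT DETCs and its relative Rhbdf1 4.67-fold lower.

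Among 30 adaptors and kinases below the receptors, Stat3, Src and Ptpn11 were higher and Pik3r1 was lower in KCs of LC-/- mice, and the genes higher in their DETCs included Stat3 and Braf. Stat3, a transcription factor activated below EGFR and cytokine receptors, was 1.31-fold higher in KCs (adjusted p = 0.0228) and 1.68-fold higher in DETCs (0.0168). Braf, a kinase upstream of ERK, was 1.99-fold higher in DETCs (adjusted p = 0.00832) and not called in KCs (0.10, adjusted p = 0.476), with a called interaction (0.89, adjusted p = 0.0113). Ptpn11, a phosphatase needed for Ras activation, was 1.28-fold higher in KCs and not called in DETCs (-0.33, adjusted p = 0.115), and its interaction was called as well (-0.68, adjusted p = 0.0146). It was called lower in LC-/- DETCs with DESeq2, with quantile normalization and in 1 limma fit over all 11 libraries. The median log2 change of the 30 genes was 0.12 in KCs and 0.11 in DETCs, beside -0.01 and 0.02 over all tested genes.

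Of 18 further inhibitors and turnover factors of the receptors, 0 were called in LC-/- KCs, and Ptprj and Tob1 were called higher in LC-/- DETCs (1.67-fold and 1.47-fold). The interaction was called for Tob1 (0.86, adjusted p = 0.0142). Of 25 early targets of EGFR and ERK signalling, Phlda1, Fosl1 and Plaur were called higher in LC-/- KCs, and Phlda1, Ier3, Itga2 and Ptgs2 in LC-/- DETCs. Phlda1 rose from 4730 ± 605 to 8525 ± 1248 in KCs (limma adjusted p = 0.0376) and from 1373 ± 210.0 to 2561 ± 403 in DETCs (0.0264). Plaur, the urokinase receptor gene, was 3.23-fold higher in KCs (adjusted p = 0.0207), and Ptgs2, the gene of cyclooxygenase-2, 2.19-fold higher in DETCs (adjusted p = 0.0226). In DETC libraries the level of Ptgs2 was 13.7% (WT) and 20.6% (LC-/-) of that in KCs, that of Itga2 24.0% and 26.5%, that of Phlda1 29.0% and 30.04% and that of Ier3 33.95% and 41.0%, beside medians of 16.7% and 20.9% for the KC genes. All 4 were higher in LC-/- DETC library 2 (Ptgs2 at 2738, Itga2 at 894 and Phlda1 at 2846) than in library 3 (1878, 640.2 and 2276), by little for Ier3 (3151 and 3108), and none was called without library 2. The part of KC transcripts in these changes was not tested. The median log2 change of the 25 targets was 0.19 in KCs and 0.31 in DETCs.

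Over the 5 lists together, the KC comparison called 7 of the 88 genes higher (7.95%, beside 5.37% of all tested genes) and 1 lower (1.14%, beside 1.85%). The DETC comparison called 10 higher (11.4%, beside 3.13%) and 0 lower (beside 0.43%). These counts moved with the setting. In KCs they were 17 and 2 with DESeq2 and with edgeR, 16 and 2 of 90 genes without a filter, 11 and 1 in 1 fit over all 11 libraries, 5 and 0 without a mean-variance trend and 3 and 2 with quantile normalization. They were 0 and 0 without WT KC library 1 or 2 or LC-/- KC library 1 or 3, 4 and 0 without WT KC library 3, and 7 and 0 without LC-/- KC library 2. In DETCs they were 18 and 1 with DESeq2, 16 and 1 in the fit over all libraries, 10 and 0 with edgeR, 7 and 1 with quantile normalization and 0 and 0 without trend. In DETCs 2 genes, Adam9 and Braf, were called higher without LC-/- DETC library 2 or WT DETC library 3, against 3 without WT DETC library 2, 8 without WT DETC library 1 and 13 without LC-/- DETC library 3.

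**Figure D5:**
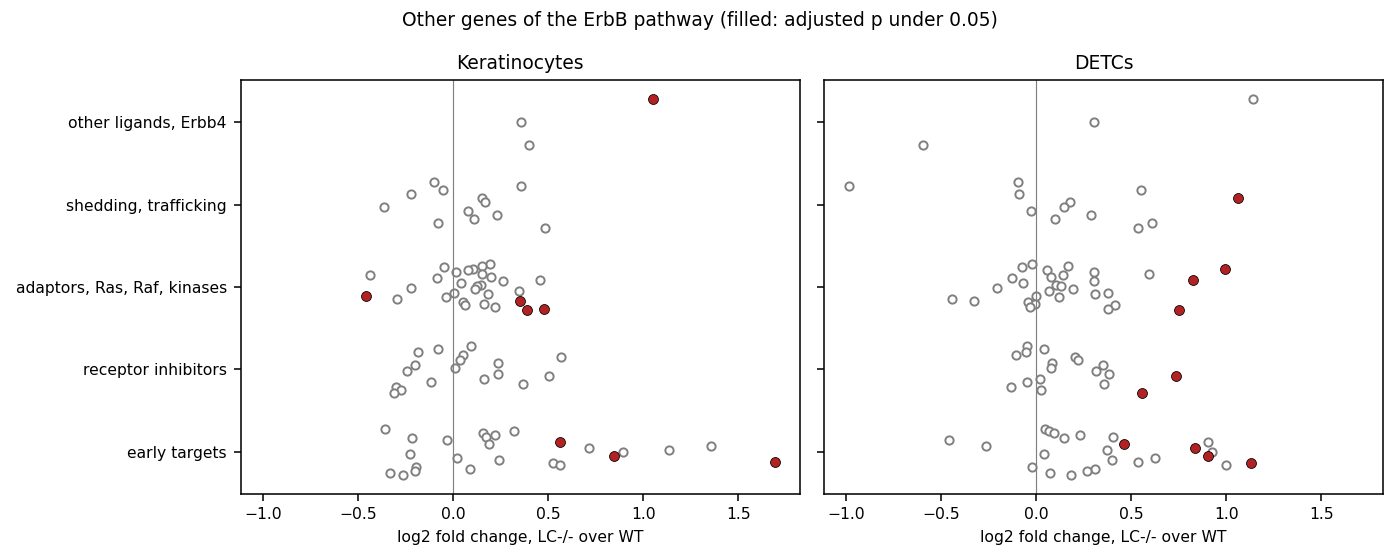
Points give the log2 fold change of LC-/- over WT libraries for the tested genes of 5 pathway lists in KCs (left) and DETCs (right), filled where the adjusted p was under 0.05. In KCs 8 genes are filled, with Plaur farthest to the right (1.69), and in DETCs 10 are filled, with Ptgs2 at 1.13 and Adam9 at 1.06.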

How the data were processed

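The 11 libraries and their groups were taken from the labels. Per the labels and the study's methods, the reads were trimmed by the authors (cutadapt), mapped to GRCm38 (hisat2), assigned to genes (featureCounts) and scaled by DESeq2 size factors. The deposited values are thus a signal on the scale of counts, and all values (100.0%) were whole multiples of a step per library, within 0.00136 reads, which gave the read counts back. Such counts carry counting error only on top of the spread between libraries. Genes with a CPM above 1 in at least 2 libraries were kept, and log2 of the value plus 1 was tested with limma 3.58.1 (eBayes, mean-variance trend, adjustment by Benjamini-Hochberg over 14419 genes, called at an adjusted p under 0.05, two-sided) in R 4.3.3. Fold changes are on this scale. edgeR 4.0.16 (quasi-likelihood) and DESeq2 1.42.0 were run on the recovered reads as alternatives, beside the other settings named in the closing section. The fit was tested on simulated data first. Gene positions and merged exon lengths came from GENCODE M21 by gene ID. A separate list of gene names paired 52403 of the identifiers with a symbol, and 2 list symbols were matched by synonym. Members, gene lists and motifs were chosen with earlier results of these data known. All members were named, the pathway genes that were called with a few textbook ones, and the genes most like each member by rank of r. Some genes that these rules would name are not reported here. The authors' own fold changes were not used.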

Additional observations from a re-analysis of the deposited data

How the results depend on the processing

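The directions of Areg, Errfi1, Hbegf, Epgn, Tgfa and the receptors between populations held under every alternative run, while counts of calls between genotypes moved. Genes called in KCs (1042) numbered 1783 with edgeR, 1752 with DESeq2, 1617 without a filter, 633 with quantile normalization and 5 to 721 without single libraries. Members called in KCs (3) were 4 with DESeq2, 2 without trend (Egfr lost), 2 in the fit over all 11 libraries (Tgfa lost), 0 with quantile normalization and 0 to 1 without single libraries. Genes called in DETCs (514) numbered 1079 with DESeq2, 959 in 1 fit over all 11 libraries, 263 with quantile normalization, 0 without trend and 35 to 590 without single libraries. Members called in DETCs (2) were 6 with DESeq2, 4 in the fit over all libraries, 1 with a pseudocount of 8 or a minimum mean of 10, 0 with quantile normalization or without trend, and 0 to 5 without single libraries. The interaction called 312 genes with DESeq2 and 22 without trend against 115, and 32 to 138 without single libraries. Quantile normalization gave 178 higher and 85 lower genes in DETCs (67.7% higher, against 87.9%), 4693 and 6658 in WT DETCs against WT KCs (41.3%, against 53.9%), 4196 and 6401 in LC-/- mice (39.6%, against 54.3%) and 70 and 48 for the interaction (59.3%, against 77.4%). The signs that turned were those of uncalled differences. With quantile normalization these were Hbegf (-0.063) and Erbb2 (-0.026) in KCs, Btc between WT populations (-0.076) and the interactions of Areg (-0.005) and Errfi1 (0.019), and Btc in DETCs was -0.196 with edgeR and -0.177 with DESeq2. Without single libraries the log2 change in KCs ranged from -0.049 to 0.209 for Hbegf and from -0.47 to 0.047 for Btc. In DETCs it ranged from -0.533 to 0.857 for Ereg, -0.614 to 0.72 for Btc, -0.191 to 0.774 for Erbb2 and -0.202 to 0.652 for Erbb3, each lowest without LC-/- DETC library 2 and highest without library 3. Between populations it ranged from -0.255 to 0.158 (WT) and -0.231 to 1.159 (LC-/-) for Ereg, and from -0.289 to 0.967 and -0.067 to 1.267 for Btc. Interactions ranged from -0.01 to 0.311 for Areg, -0.026 to 0.711 for Tgfa, -0.045 to 0.529 for Egfr and -0.076 to 0.051 for Errfi1. The cause of these shifts was not tested. Libraries with the same number were checked for pairing over 14039 genes: their deviations from group means correlated at -0.0586, 0.0736 and 0.120 in WT and at 0.156 and 0.128 in LC-/- mice. Of 5 numbers, 4 were nearest to themselves, a weak hint, as each had only 3 (WT) or 2 (LC-/-) DETC libraries to match. The deviations of the 2 LC-/- DETC libraries are exact opposites, so there the match rests on the sign of the correlation alone. As not every correlation was over 0.1 and the labels do not say what the number marks, it was not used to pair libraries. With the number as a replicate block the interaction called 132 genes, and the LC-/- population comparison called Ereg as well (log2 difference 0.47, limma adjusted p = 0.0422). The numbers of libraries limit all genotype comparisons, and in DETCs a fit without 1 LC-/- library assumes that the other varies like the WT libraries.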
